A study of Mus musculus with 8 samples.

Results

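D5Ertd605e was the only autosomal gene whose reads came almost entirely from one strain's allele in one reverse-cross blastocyst and almost entirely from the other strain's allele in another. It was selected on the B6 share of reads in the reverse embryos, with at least 30 reads and a share of at least 90% in 1 embryo and at least 30 reads and a share of at most 10% in another. Of 7496 autosomal genes with at least 30 reads in 2 or more reverse embryos, 1 met these thresholds (0.0133%), and no X-linked gene met them (0 genes). The selection used the reverse embryos, so their B6 shares are given here as a description without a test, and the forward embryos were tested separately.

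The series holds single blastocysts of embryonic day 3.5, taken from natural matings without culture and sequenced one by one with SMART-Seq2, a full-length protocol that amplifies the cDNA of very few cells. There were 3 forward embryos (B6 mother, cast father) and 5 reverse embryos (cast mother, B6 father), where B6 is the C57BL/6 strain and cast is Mus musculus castaneus. The reverse embryos carry the numbers 1, 2, 3, 5 and 7. The measurement is the number of reads that cover a known B6/cast single nucleotide polymorphism (SNP), assigned to the strain whose base they carry. A B6 share therefore measures the maternal allele in the forward cross and the paternal allele in the reverse cross. All genes together gave between 1060063 and 1632695 such reads per embryo.

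In an F1 hybrid, most autosomal genes are read from both alleles. In the typical case, imprinted genes keep the same parental allele silent or low in every embryo, and strain-biased genes favour the same strain in both crosses. A gene that favours opposite alleles in embryos of the same cross follows neither pattern, because parent and strain are the same in all of them. In single cells many genes are at times read from one allele by chance, and a blastocyst, a hollow ball of trophectoderm around an inner cell mass, averages over its cells.

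Reverse embryo 1 stood apart from the rest in its B6 shares before any gene was singled out. In reverse embryo 1, the standard deviation of B6 shares over autosomal genes with at least 30 reads was 21.9 percentage points, against 16.1 to 18.0 in the other 7 embryos. Of its genes, 9.59% had a B6 share of at least 90% and 2.33% a share of at most 10%, while the other embryos had 3.5 to 5.62% and 0.698 to 1.12%. Its B6 shares correlated with those of the other reverse embryos at 0.488 to 0.526 over 4551 genes with at least 30 reads in all 8 embryos, where the other reverse embryos reached 0.674 among themselves. Levels are given as RPM, the reads of a gene scaled to 1000000 SNP-spanning reads per embryo. The 12 trophectoderm markers, 11 of them detected, summed to 2856 RPM in reverse embryo 1, with Gata2 at 0, and to 6598 to 8966 RPM in the others. It was also lowest on the epiblast list (2064 RPM, others 2508 to 4191) and the oocyte list (770.0 RPM, others 857.5 to 1872). On the red blood cell list it was highest (51.2 RPM, others 2.67 to 24.8). Its primitive endoderm sum of 1448 RPM lay within the 1109 to 2160 RPM of the others. The cumulus-cell list, 4 of 8 detected, summed to 1443 RPM in reverse embryo 1 and to 181.5 to 602.1 RPM in the others, with Ptx3 and Inha at 0. Nr5a2, which embryos also express, had 2159 reads in reverse embryo 1 and 267 to 913 in the others, nearly all of that list. Its X-linked reads were almost all from the maternal cast allele, with 6.09% B6 against 33.9 to 41.3% in the other reverse embryos, and it had 38 reads of Xist, the RNA that silences an X chromosome in females, against 1231 to 1844. The 3 forward embryos likewise read the X chromosome almost only from the mother (97.6 to 98.0% B6) and had 33 to 135 Xist reads, and embryos were not matched for sex. The X-linked share therefore does not set reverse embryo 1 apart from the whole series. On the leukocyte list, forward embryo 1 had 690.3 RPM, with 8 of 8 genes detected. The other embryos had 2.67 to 42.5 RPM on that list. Whether the autosomal and marker differences had a part in the results below was not tested.

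**Figure D1:**
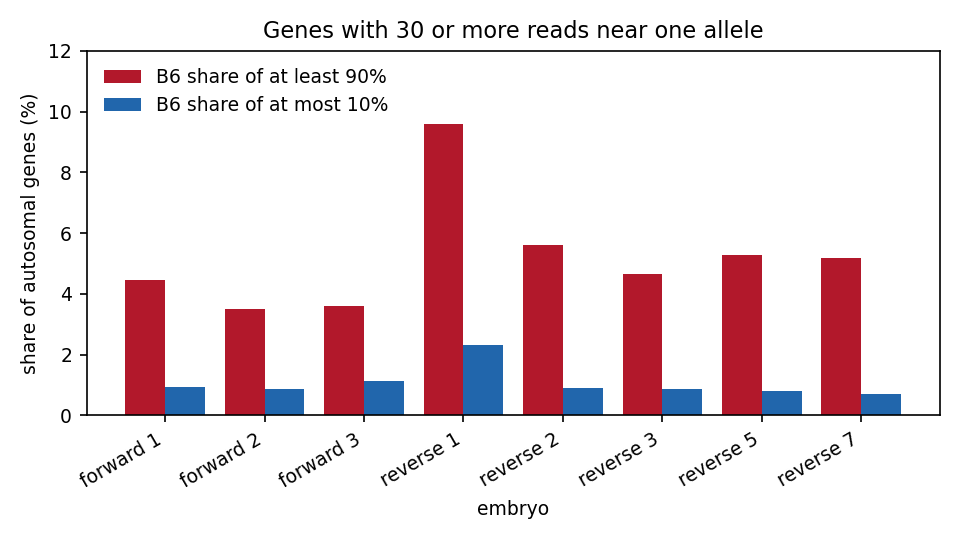
Percentage of autosomal genes with 30 or more reads whose B6 share was at least 90% (red) or at most 10% (blue), as 1 bar each per embryo. Reverse embryo 1 had the highest bar of both kinds, at 9.59% and 2.33%.

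D5Ertd605e is a long intergenic non-coding RNA gene (ENSMUSG00000106820.1) on the plus strand of chr5:147418601-147423044 in mm10. The annotation gives 3 exons of 101, 167 and 813 bases, a transcript of 1081 bases, and no other gene overlapping it. The name dates from an expressed sequence tag, and the annotation assigns it no function. The values below are counted per gene, and the gene's first 2 exons are shown as the annotation gives them. They are the first 268 bases of the transcript, with exon 1 in lower case and exon 2 in capitals, from GENCODE release M21. The SNPs that the reads covered were not analysed here.
D5Ertd605e: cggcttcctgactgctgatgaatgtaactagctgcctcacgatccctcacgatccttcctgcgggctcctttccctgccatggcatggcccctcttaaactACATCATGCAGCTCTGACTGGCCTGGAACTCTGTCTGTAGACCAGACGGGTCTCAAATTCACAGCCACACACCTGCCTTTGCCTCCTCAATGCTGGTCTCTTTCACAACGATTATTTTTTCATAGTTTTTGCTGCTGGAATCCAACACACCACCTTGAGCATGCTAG

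In reverse embryo 1, 128 of 142 reads of D5Ertd605e were B6, a share of 90.1% with a 95% Wilson interval of 84.1 to 94.0%. In reverse embryo 5, 0 of 59 reads were B6, with an upper limit of 6.11%. These embryos mark the ends of the range, and only 1 pair of embryos of the series met the thresholds for any gene. The interval of reverse embryo 1 starts below 90%, so its side of the threshold is not fixed by its depth.

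The 3 other reverse embryos lay between those ends, on the cast side. The B6 share was 26.1% of 261 reads in reverse embryo 2, 20.1% of 144 in reverse embryo 3 and 23.2% of 112 in reverse embryo 7. Their intervals, from 14.4 to 31.8% together, overlapped each other and neither end. The 5 reverse embryos thus comprised 1 with mainly B6 reads and 4 with mainly cast reads.

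The forward embryos, which had no part in the selection, all had mainly cast reads. The B6 share was 10.2% of 118 reads in forward embryo 1, 24.7% of 93 in forward embryo 2 and 33.6% of 116 in forward embryo 3. The mean B6 share was 22.8% ± 11.8 (SD, n = 3), the reverse mean was 31.9% ± 34.1 (SD, n = 5), and without reverse embryo 1 it was 17.4% ± 11.8 (SD, n = 4). The cast allele is paternal in the forward and maternal in the reverse cross, so 7 of 8 embryos had more cast than B6 reads whichever parent transmitted it. Reverse embryo 1 was the exception.

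**Figure D2:**
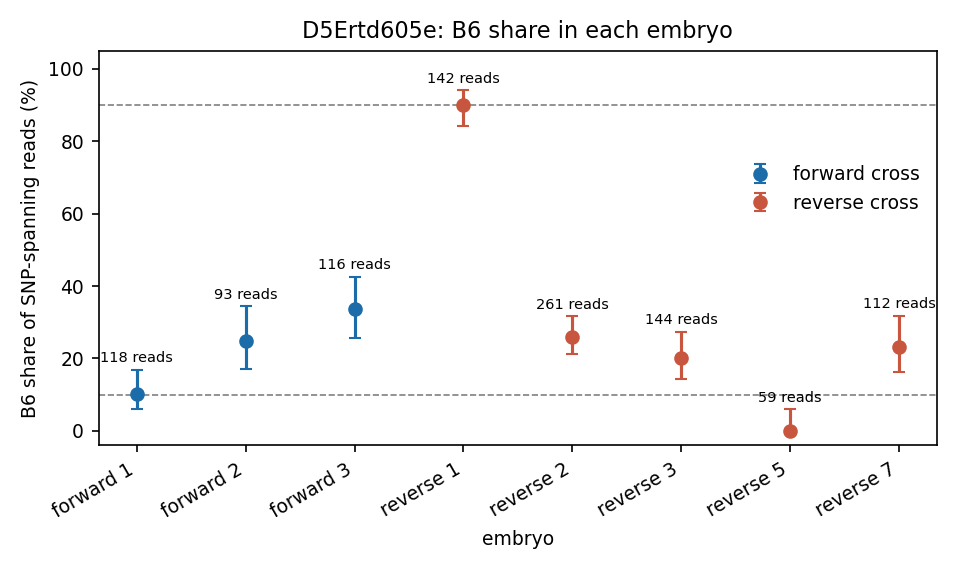
B6 share of SNP-spanning reads of D5Ertd605e in each embryo, with 95% Wilson intervals and the number of reads. Dashed lines mark 90% and 10%. Reverse embryo 1 is at 90.1%, reverse embryo 5 at 0%, and the other 6 embryos are between 10.2 and 33.6%.

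In the forward cross, the cast allele of D5Ertd605e was higher than B6 by 2.02 on the log2 scale (SE 0.41). The adjusted p was 0.00267 by edgeR's quasi-likelihood test. Each allele's reads in an embryo were scaled as a separate library, and B6 held 57.7 to 58.3% of all reads in the forward embryos. A log2 difference of 0 therefore does not mean equal reads. Unscaled, the forward reads of D5Ertd605e were 74 B6 and 253 cast. Of 10571 genes tested in these 3 embryos, 5.97% were called toward cast at an adjusted p of at most 0.1. The call stayed in all 8 alternatives, with log2 differences of 1.57 to 2.59 and adjusted p-values of 1.54e-06 to 0.0567. Parent and strain cannot be told apart within a single cross.

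The fits over both crosses include the reverse embryos and are given for description. The cast allele was higher than B6 by 1.68 on the log2 scale (SE 0.58) with parent in the model, and 4.47% of 12564 genes were called toward cast. Without reverse embryo 1 the difference was 2.11. The paternal allele was higher than the maternal by 0.28 (SE 0.57), and 1.42% of genes were called in either direction. Without reverse embryo 1 that difference was −0.14, so this embryo set its sign.

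The total levels of D5Ertd605e, both alleles together, overlapped between the crosses. They were 72.3, 80.7 and 90.8 RPM in forward embryos 1, 2 and 3. In reverse embryos 1, 2, 3, 5 and 7 they were 94.3, 163.3, 96.1, 44.3 and 105.7 RPM. The reverse values surrounded the forward ones, with the lowest in reverse embryo 5, which had no B6 read. The total reverse level was higher by 0.33 on the log2 scale (SE 0.38, edgeR adjusted p = 0.878), and 0.0688% of 13076 genes were called in either direction. A requirement for 30 reads in reverse embryos favours genes that are higher in that cross. Xist reads were 1231 to 1844 in reverse embryos 2, 3, 5 and 7 and 33 to 135 in all other embryos. Cross and this difference can therefore hardly be told apart here, and not at all without reverse embryo 1.

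The nearest gene, Pan3, a subunit of the deadenylase complex that shortens poly(A) tails, starts 7117 bases away. Its B6 share was 43.4% in reverse embryo 1 and 54.1% in reverse embryo 5, and 39.5 to 54.1% over all 8 embryos. Of 25 genes within 1 Mb of D5Ertd605e, 7 had at least 30 reads in all embryos. Their median B6 share was 46.7% in reverse embryo 1 and 59.7% in reverse embryo 5. Over chromosome 5 the B6 share was 59.3% in reverse embryo 1, and 59.1 to 61.8% in the other embryos. Single genes of this window did differ between reverse embryos. Rpl21, a ribosomal protein gene, was at 27.1% of 85 reads in reverse embryo 1 and 71.9% of 121 in reverse embryo 5. Lnx2, a ubiquitin ligase gene, was at 11.3% of 124 reads in reverse embryo 1 and 78.4% of 51 in reverse embryo 3. In both, reverse embryo 1 was on the cast side, the opposite of its side at D5Ertd605e.

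D5Ertd605e met the thresholds by 0.141 percentage points. The nearest gene outside, Gm14023, a non-coding gene that overlaps Il1a, missed by 1.77 points, with 11.8% of 34 reads B6 in reverse embryo 1 and 93.8% of 48 in reverse embryo 7. Sec14l4, of the SEC14-like lipid-binding proteins, missed by 4.71 points, with 85.3% of 68 reads in reverse embryo 1 and 9.30% of 43 in reverse embryo 5. The serine protease Prss48 missed by 5.00 points, with 94.9% of 79 reads in reverse embryo 1 and 15% of 40 in reverse embryo 2. Reverse embryo 1 was at one end of the range in all 3 of these genes.

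Wider thresholds of 80% and 20% brought in 20 genes, 0.267% of those with enough reads. They include Arel1, B3galnt1, D5Ertd605e, Dohh, Gm14023, Gmppa, Kctd2, Mtmr9, Ncoa5, Opa3, Pdzd2, Pon2, Prss48, Rab33b, Sec14l4, Slc30a4, Tenm3, Tmem17 and Zfp790. Of these, 18 are protein-coding and 11 overlap another annotated gene on either strand, whose reads the counting could share. The same shares over all genes with enough reads were not determined, so these counts do not set the 20 genes apart. Their median read count per reverse embryo had a median of 39.0, against 77.0 over all genes with enough reads. Genes with a median of 30 to 49 reads gave 13 of the 20 (0.865% of 1503 such genes), and no gene with a median of 300 reads or more was among them (0 of 789).

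**Figure D3:**
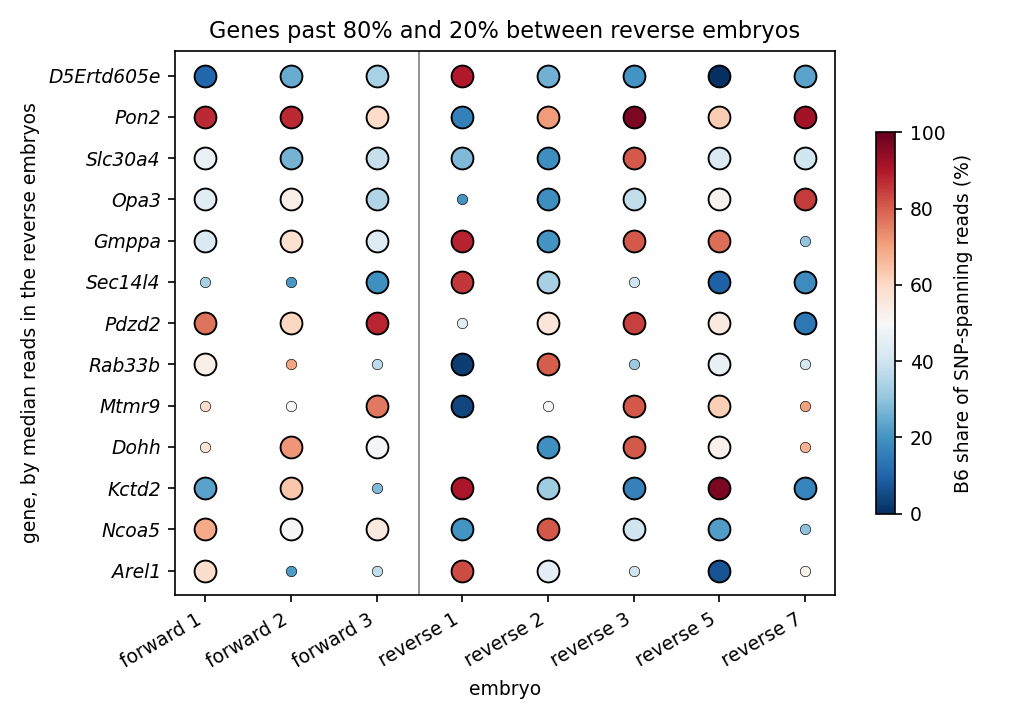
B6 share (colour) in each embryo for the 13 of the 20 genes that had at least 30 reads in 1 or more forward embryos, ordered by median reads in the reverse embryos. Large points have at least 30 reads, small points fewer, and no point means no read. Forward embryos are left of the line. In the column of reverse embryo 1, 9 genes have a large point of at least 80% or at most 20%.

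Kctd2 and Pon2 had more than 1 embryo near an end of the range. Kctd2, an adaptor of Cullin-3 ubiquitin ligases on chr11:115420128-115431274, had a B6 share of 90.9% in reverse embryo 1 and 97.0% in reverse embryo 5, with 33 reads in each. In reverse embryos 3 and 7 its share was 16.1% and 16.7%, and in reverse embryo 2 it was 32.1%. Both ends were thus seen in 2 embryos, and the forward embryos with enough reads were at 22.7% and 63.9%. Pon2, a lactonase of the paraoxonase family on the study's list of published imprinted genes, was at 15.8% in reverse embryo 1 and at 96.9% and 92.0% in reverse embryos 3 and 7. Its other reverse embryos were at 71.4% and 62.9%, so the B6 allele was the major one everywhere but in reverse embryo 1. The paper reports a clear strain bias of Pon2, seen by RT-PCR and Sanger sequencing of other reciprocal-cross blastocysts.

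Of the other genes past 80% and 20%, 5 are given as examples. Gmppa, which regulates the making of GDP-mannose for glycosylation, was at 88.5%, 80.7% and 77.8% in reverse embryos 1, 3 and 5 and at 20% in reverse embryo 2, while its forward embryos were at 42.8 to 58.0%. B3galnt1, a glycosyltransferase, had 0 of 61 B6 reads in reverse embryo 1 and 81.6% of 38 in reverse embryo 3. Slc30a4, a zinc transporter, was at 18.8% in reverse embryo 2 and 80.7% in reverse embryo 3, and at 26.5 to 46.7% in the forward embryos. Rab33b, a small GTPase of the Golgi, was at 2.56% of 39 reads in reverse embryo 1 and 80.4% of 51 in reverse embryo 2. Opa3, a mitochondrial protein, was at 18.8% in reverse embryo 2 and 85.1% in reverse embryo 7, and at 35.0 to 52.8% in the forward embryos.

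The gene lists are read against the 0.267% of all genes with enough reads that passed 80% and 20%, a share at which lists of this size hold few or no such genes. Genes with enough reads numbered 9 on the trophectoderm, 10 on the epiblast, 9 on the primitive endoderm and 3 on the oocyte list, and 0 of each passed. The chromatin list gave 0 of 35, DNA repair and p53 0 of 50, cytoplasmic and mitochondrial ribosomal proteins 0 of 58 and 0 of 68, oxidative phosphorylation subunits 0 of 57, ubiquitin-specific proteases 0 of 33 and kinesins 0 of 19. The zinc finger genes gave 1 of 126 (Zfp790), the solute carriers 1 of 110 (Slc30a4), the Rab genes 1 of 30 (Rab33b), the Tmem genes 1 of 101 (Tmem17), the Gm and Rik genes 1 of 489 (Gm14023), and the published imprinted genes 1 of 77 (Pon2). Counts of 0 and 1 do not separate these lists from all genes.

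Reverse embryo 1 was at an end of the range in 16 of the 20 genes, at the high end in 7 and at the low end in 9. Without it, 6 of the 20 genes were left, and leaving out any other reverse embryo left 12 to 17. With a minimum of 20 reads and shares of 90% and 10%, 14 genes passed (0.162% of 8654), 13 of them with reverse embryo 1 at an end, and 1 was left without it. D5Ertd605e needed both reverse embryo 1 and reverse embryo 5.

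Counts per pair of embryos allow crosses with different numbers of embryos to be set side by side. The 4 pairs with reverse embryo 1 each had 4 to 5 genes past 80% and 20%, among 5332 to 6179 genes with 30 reads in both. The 6 other reverse pairs had 0 to 3 and the 3 forward pairs 0 to 2. In the forward embryos, no gene passed 90% and 10% (0.0% of 6680), and 2 passed 80% and 20% (0.0299%). They include Prkacb, a catalytic subunit of protein kinase A, with 14.3% of 42 reads B6 in forward embryo 1 and 90.5% of 42 in forward embryo 3. It was not among the 20 genes of the reverse cross.

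**Figure D4:**
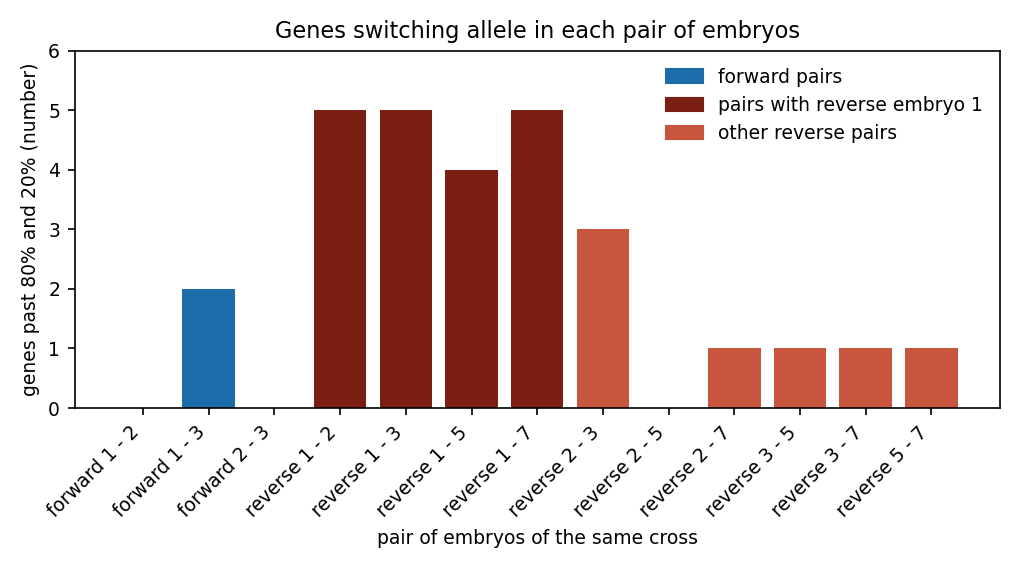
Number of genes past 80% and 20% in each pair of embryos of the same cross, for genes with at least 30 reads in both. Pairs with reverse embryo 1 have 4 to 5 genes, other reverse pairs 0 to 3, and forward pairs 0 to 2.

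The forward embryos were also read for the 20 genes. They gave 29 values of at least 30 reads, of which 5 were outside 20 to 80% (17.2%) and 0 were past 90% or 10%. Over all genes with enough reads, 9.14% of 19121 forward values were outside 20 to 80% and 4.05% were past 90% or 10%. For D5Ertd605e, 1 of 3 forward values was outside 20 to 80%. In the forward test, 19 of the 20 genes could be tested and 4 were called, against 15.6% of all genes. The median log2 difference between cast and B6 over the 19 genes was 0.48, after the separate scaling of each allele. It is not a ratio of reads: Gmppa, the gene at this median, had 46.7% B6 among its pooled forward reads. Sec14l4 was higher on cast by 2.06 (SE 0.61, edgeR adjusted p = 0.036), and the cast minus B6 difference of Pon2 was −1.62 (SE 0.45, edgeR adjusted p = 0.0256). Leaving out single forward embryos ended these calls: Sec14l4 had an edgeR adjusted p of 0.175 without forward embryo 2 and 0.29 without forward embryo 3. Pon2 had 0.273 without forward embryo 1 and 0.191 without forward embryo 2. Over all alternatives, the log2 difference was 1.78 to 2.29 for Sec14l4 and −2.39 to −1.08 for Pon2.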

How the data were processed

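Single blastocysts of both reciprocal crosses were sequenced with SMART-Seq2. The authors aligned reads to mm10 with STAR, excluded reads mapping to several places, kept reads over annotated B6/cast SNPs and took reads per gene and strain from Allelome.Pro. The deposited values are these counts, without normalization. Strand use in counting is not given in the sources used here.

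Gene positions came from GENCODE release M21 (18286 genes), RefSeq (2999) and synonyms (411). Left out were 645 genes on the X chromosome and 1114 with no chromosome assigned, and the latter held 0.850% of reads. B6 shares had 95% Wilson intervals. Reads are PCR copies without molecular identifiers, so intervals cover counting error only. No label says that embryos came from separate litters, so p-values measure the spread between these embryos.

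Tests used edgeR 4.0.16 (R 4.3.3, limma 3.58.1) with TMM factors, the quasi-likelihood test and Benjamini-Hochberg adjustment, for genes with at least 10 reads in 1 library, called at an adjusted p of at most 0.1, and were tested on simulated data. Alternatives were DESeq2 1.42.0, RLE factors, other filters, a replicate block and leaving out each embryo. Figures used matplotlib 3.10.9.

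B6 and cast reads of an embryo are paired by origin, and their deviations correlated at 0.0821 to 0.132 in forward and 0.145 to 0.487 in reverse embryos. The main allele fits had no term for the embryo, so their p-values did not take this pairing into account. The replicate block did. The gene and the lists were chosen with earlier results of these data known. Named genes were to be those meeting the thresholds and the 3 nearest outside. The genes past 80% and 20%, Prkacb, Pan3, Rpl21 and Lnx2 were chosen after their values were seen, and some genes are not reported here by name. The 80% and 20% thresholds and 20 reads were other settings of the same rule. The leukocyte list was at 690.3 RPM in forward embryo 1 and at 2.67 to 42.5 RPM in the others. Over all embryos, the red blood cell list was at 2.67 to 51.2 and the uterine and oviduct list at 86.3 to 219.3. The oocyte list was at 770.0 to 1872, the epiblast list at 2064 to 4191 and the primitive endoderm list at 1109 to 2160.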

Additional observations from a re-analysis of the deposited data

Results flagged for a closer look

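Checks of total reads, genes with at least 30 reads, Xist reads and the chromosome 5 share gave no flag in the reverse embryos. Reverse embryo 1 lay far from the other 4 reverse embryos in 5 measures over many genes. All but its X-linked share are summaries of the same spread of B6 shares. Its B6 shares had a standard deviation of 21.9 percentage points, 9.59% of its genes were at or above 90% B6, 2.33% were at or below 10%, and 21.7% were outside 20 to 80%. The B6 share of its X-linked reads was 6.09%. It also had 38 Xist reads against 1231 to 1844 in the other reverse embryos, and the forward embryos, with 33 to 135, likewise read the X chromosome almost only from the mother, at 97.6 to 98.0% B6. Embryos were not matched for sex. For D5Ertd605e its B6 share of 90.1% was far from the others, with a gap to the nearest embryo of 0.711 of the whole range. For Gmppa, the 20% of reverse embryo 2 was far from the other 3 embryos with enough reads, at 0.844 of the range. Among the genes past 80% and 20%, 11 had enough embryos for this comparison. Chance alone gives such a gap in about 1 in 20 groups, and these genes were chosen for their wide range.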

How the results depend on the processing

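The number of genes meeting the thresholds (1) was 14 at 20 reads, 0 at 100 reads, 0 at 95% and 5%, and 20 at 80% and 20%. Alternatives chosen after seeing the data gave 95 at 10 reads and 4 at 85% and 15%. Leaving out each reverse embryo gave 0 to 1. In the forward embryos (0) it was 1 at 20 reads and 2 at 80% and 20%. The 20 genes past 80% and 20% became 83 at 20 reads, 3 at 50, 0 at 100 and 9 without overlapping genes (all chosen after seeing the data), and 6 to 17 without each reverse embryo, 6 being without reverse embryo 1. The forward values of D5Ertd605e have no value without reverse embryo 1 or 5, since no gene is then left. Calls in the forward fit (1652) were 785 to 1456 without each embryo. Parental calls (178) were 75 with 10 reads in every embryo, 406 without a filter and 390 with the replicate block. Strain calls (1933) were 1062 with 10 reads in every embryo, 3209 with the replicate block and 1205 to 2449 without each embryo. Calls for total reads (9, with 958 at an unadjusted p under 0.05) were 136 with DESeq2, 0 with 10 reads in every embryo (512 at an unadjusted p under 0.05), 143 without a filter, 18 with a replicate block over the shared numbers and 3 to 160 without each embryo, 160 being without reverse embryo 1. The numbers shared between crosses name no common source, and deviations of same-numbered embryos correlated at 0.161, 0.0109 and 0.13. With the replicate block for each embryo the forward difference of D5Ertd605e was 2.14 and stayed called. Its parental difference was −0.138 to 0.519 without each embryo, and only the value without reverse embryo 1 turned negative. Its strain difference lost its call in 6 of 13 alternatives. The cause of these changes was not tested. With 0 of 59 reads B6 in reverse embryo 5, the 95% Wilson interval reached 6.11%, and it covers counting error only.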
